A study of Mus musculus with 23 samples.

Results

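The 7 genes described here encode C-type lectin receptors of myeloid cells: Clec4d (MCL), Clec4e (Mincle), Clec4n (Dectin-2), Clec5a (MDL-1), Clec7a (Dectin-1), Clec12a (MICL) and Clec4a2 (DCIR). They were taken by symbol from the 47729 entries of the gene count table, and all 7 were found and passed the filter on low counts that left 16260 genes for testing. Their transcripts were followed in 23 RNA sequencing libraries of cells sorted from the subcutaneous tissue of C57BL/6J wildtype mice, with or without an implanted poly(ethylene glycol) (PEG) hydrogel, a synthetic polymer network that provokes a foreign body response. The series' design note describes the macrophages as Cx3cr1-positive and Ly6C-low and the monocytes as Cx3cr1-positive and Ly6C-high. Controls had no implant, and implant groups were collected 2, 14 or 28 days after implantation. Each group had 3 biological replicates except the macrophage controls, which had 2. The sources used here give neither the age of the animals nor whether any were pooled.

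C-type lectin receptors recognise sugars and lipids of microbes and of damaged cells at the surface of phagocytes. MCL, Mincle and Dectin-2 have no signalling motif of their own and signal through the FcR gamma chain (Fcer1g), MDL-1 signals through DAP12 (Tyrobp), and Dectin-1 carries an activating motif in its own tail. All of these pass through the kinase Syk, and much of the onward signal to NF-kB runs through Card9, Bcl10 and Malt1. The label "activating" does not hold for all 7 genes: MICL and DCIR carry inhibitory motifs that recruit phosphatases such as SHP-1 (Ptpn6), and their 2 genes are described apart from the other 5.

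All 7 genes lie on mouse chromosome 6 (GRCm38, GENCODE M21). Clec4a2 (123106428 to 123143999), Clec4n (123229843 to 123247021), Clec4d (123262111 to 123275265) and Clec4e (123281789 to 123289870, minus strand) are neighbours, with 6.5 kb between Clec4d and Clec4e. Clec12a (129342691 to 129365303) and Clec7a (129461591 to 129472779, minus strand) form another cluster 96.3 kb apart, and Clec5a (40574894 to 40585821, minus strand) stands alone. The annotation types Clec7a as a polymorphic pseudogene and the other 6 as protein coding. No stretch of 75 bases, the read length, was shared with another gene's transcripts for 6 of the 7 genes, while 3.24% of such stretches were shared for Clec4a2, mostly with Clec4a4, so reads of that pair may not have been fully separated.

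Promoter sequences were printed for Clec4e, Clec5a and Clec7a, 3 of the genes that rose in both cell types. That of Clec12a, which did not pass the test against controls, stands beside theirs. Each is the 150 bases before the RefSeq start site (GRCm38.p6), written 5′ to 3′ on the gene's strand, and capitals mark matches on either strand to GAGGAA (the core letters of PU.1 sites), TTGCNNAA (C/EBP) or ACGTG (hypoxia response element). The windows are chr6:123289872-123290021 on the minus strand for Clec4e, chr6:40585806-40585955 on the minus strand for Clec5a, chr6:129472780-129472929 on the minus strand for 1 of the 2 Clec7a starts, and chr6:129350094-129350243 on the plus strand for Clec12a.
Clec4e: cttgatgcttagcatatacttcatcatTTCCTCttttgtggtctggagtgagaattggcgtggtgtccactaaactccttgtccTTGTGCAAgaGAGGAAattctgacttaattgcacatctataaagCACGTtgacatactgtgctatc
Clec5a: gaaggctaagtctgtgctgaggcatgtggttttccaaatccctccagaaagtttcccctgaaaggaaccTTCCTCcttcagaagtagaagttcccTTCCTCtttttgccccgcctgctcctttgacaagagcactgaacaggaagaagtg
Clec7a: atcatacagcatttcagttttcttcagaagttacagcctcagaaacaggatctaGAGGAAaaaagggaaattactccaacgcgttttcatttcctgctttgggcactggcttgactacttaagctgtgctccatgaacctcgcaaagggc
Clec12a: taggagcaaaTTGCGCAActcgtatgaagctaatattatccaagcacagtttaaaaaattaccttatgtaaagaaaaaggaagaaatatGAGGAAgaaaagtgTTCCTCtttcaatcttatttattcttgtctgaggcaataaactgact
RefSeq windows from 250 bases before to 50 after the start were held for 6 of the 7 genes, all but Clec4n. GAGGAA was found in 5 of these 6 genes (Clec4d, Clec4e, Clec5a, Clec7a and Clec12a) and in 28.3% of all 32851 windows. TTGCNNAA was found in 2 of 6 (Clec4e and Clec12a) against 10.8% of all windows, and ACGTG in 1 (Clec4e) against 19.6%. TGANTCA (AP-1) was found in 2 of 6 (Clec12a and Clec4a2) against 7.81%, and the NF-kB motif searched in 0 of 6 against 0.411%. No capitalised matches overlapped in the sequences printed. These are matches of letters only, and Clec12a, which passed no test against controls, held as many GAGGAA matches in its window (2) as Clec4e and Clec5a.

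The libraries held between 9303153 and 32994092 counts (median 24722229). Levels are given in CPM, counts scaled to the TMM-adjusted library size, and changes as log2 fold changes with their standard error (SE) from edgeR's quasi-likelihood test, called at a Benjamini-Hochberg adjusted p under 0.05 over all 16260 genes. TMM factors were 1.24 to 1.41 in the control libraries and 0.727 to 1.04 in the implant libraries. With plain library totals in their place, the median log2 fold change of all genes against controls moved by -0.379 to -0.737, and the share of all calls that were rises went from 58.7%, 67.1% and 62.3% to 22.8%, 26.5% and 30.3% in macrophages at days 2, 14 and 28, and from 57.5%, 52.6% and 64.2% to 33.8%, 25.8% and 39.9% in monocytes. The 5 or 6 receptor genes counted as rising in each comparison below were also called with library totals; where a call of another named gene was not, this is said beside it. Of the marker lists, the 9 macrophage markers summed to between 10344 and 20599 CPM in macrophages and to between 3008 and 9185 CPM in monocytes. Ly6c2, the gene behind the Ly6C gate, lay between 5.49 and 236 CPM in macrophages and between 836 and 3586 CPM in monocytes, with no overlap. C1qa, which marks tissue macrophages, lay between 1.09 and 1.37 CPM in control monocytes and between 143 and 528 CPM in implant monocytes. In such bulk libraries, fewer cells of a type and less RNA per cell cannot be told apart.

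Macrophages around the implant carried far more transcript of the 5 activating receptors than control macrophages at every day sampled, while the genes of the 2 inhibitory receptors did not pass the test. In macrophages, 5 of the 7 genes rose at day 2, where 10.1% of all tested genes rose. The same 5 rose at day 14, against 5.51% of all genes, and at day 28, against 6.57%. In monocytes, 5 of 7 rose at day 2 against 15.5% of all genes, and 6 of 7 rose at day 14 against 19.8% and at day 28 against 11.7%. None of the 7 was called lower in macrophages, where 7.1%, 2.7% and 3.99% of all genes fell at the 3 days, or in monocytes, where 11.5%, 17.9% and 6.52% fell. The median log2 fold change over the 7 genes was 2.10, 3.40 and 3.91 in macrophages at days 2, 14 and 28, beside -0.16, -0.08 and -0.04 over all genes. It was 2.13, 4.04 and 3.35 in monocytes, beside 0, -0.03 and 0. The days of each cell type share their control libraries and are not independent of each other. The 7 genes were chosen with earlier results of these data known. Their counts and medians beside those of all genes are thus a description and not a test of the set. Fibroblast markers moved with the monocyte comparisons: the 7 listed summed to 0.133 to 1.018 CPM in control monocytes, with 3 of them at 0, and to 12.7 to 133.6 CPM at day 2, 612 to 1117 CPM at day 14 and 274 to 664 CPM at day 28, and 6 of the 7 were called higher at each day. In macrophages they summed to 192 and 258 CPM in controls and to 5.97 to 114 CPM around the implant. Their part in the receptor changes was not tested.

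**Figure D1:**
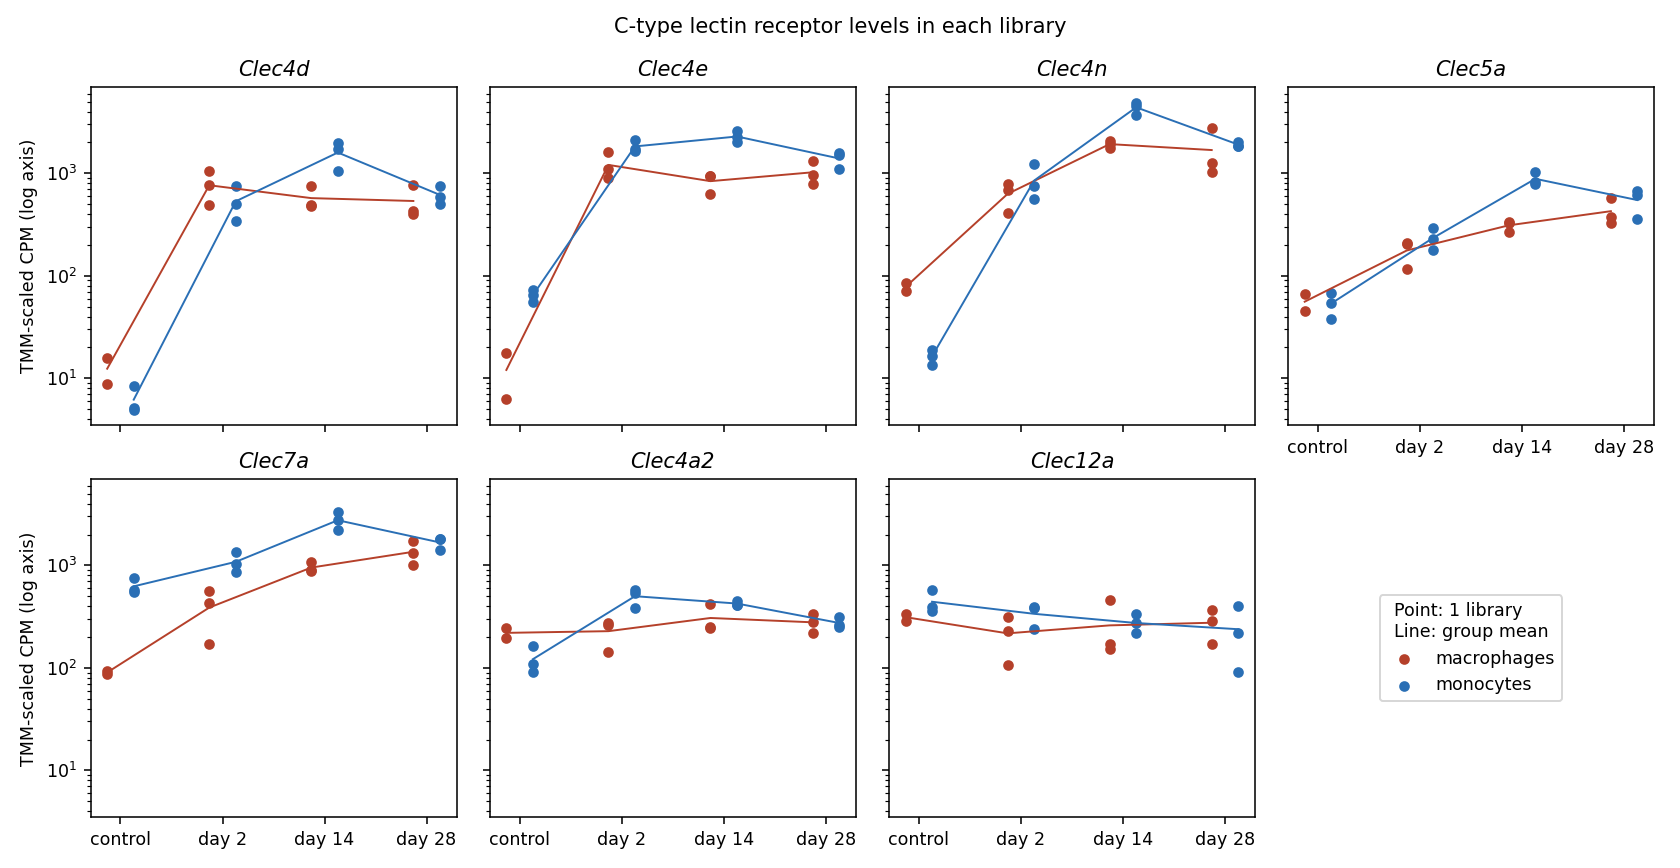
Levels of the 7 receptor genes in each of the 23 libraries (TMM-scaled CPM, log axis) in controls and at days 2, 14 and 28; points are libraries and lines join group means. Control and implant libraries do not overlap for Clec4d, Clec4e, Clec4n, Clec5a and Clec7a in either cell type. In macrophages, implant libraries of Clec12a overlap the controls at days 2, 14 and 28, and those of Clec4a2 at days 2 and 28.

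Clec4e encodes Mincle, which recognises mycobacterial glycolipids and the nuclear protein SAP130 released by dying cells. In control macrophages it stood at 17.8 and 6.29 CPM, and in implant macrophages at 1625, 903 and 1093 CPM at day 2, 940.1, 629 and 945 CPM at day 14, and 966, 791 and 1311 CPM at day 28. The lowest implant library was thus far above the higher control, and the implant days overlapped each other. Its log2 fold change was 6.65 (SE 0.48) at day 2, 6.13 (SE 0.46) at day 14 and 6.41 (SE 0.47) at day 28, or 101-fold, 69.9-fold and 85.3-fold, which was the largest change of the 7 genes in macrophages at each day (adjusted p = 3.59e-08, 7.68e-08 and 4.29e-08). In control monocytes Clec4e was already at 56.1, 64.6 and 73.4 CPM, and it reached 2101, 1733 and 1650.3 CPM at day 2, 2574, 2279 and 2003 CPM at day 14, and 1111, 1568 and 1507 CPM at day 28. The rise there was 28.2-fold, 35.3-fold and 21.6-fold, with adjusted p of 6.89e-09, 2.39e-09 and 1.73e-08.

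Clec4d encodes MCL, a partner of Mincle that helps bring it to the cell surface. It was the lowest of the 7 genes in control monocytes, at 4.93, 8.47 and 5.18 CPM, and it stood at 8.88 and 15.9 CPM in control macrophages. In implant macrophages its libraries gave 1046, 485 and 761 CPM at day 2, 487, 481 and 749.6 CPM at day 14, and 401, 433 and 777 CPM at day 28. The log2 fold change in macrophages was 5.94 (SE 0.54), 5.52 (SE 0.53) and 5.43 (SE 0.53) at the 3 days (adjusted p = 3.67e-07, 9.92e-07 and 1.01e-06), so the early rise held through day 28. In monocytes Clec4d stood at 753, 507 and 339.6 CPM at day 2, at 1731, 1057 and 1994 CPM at day 14, and at 752, 504 and 590.4 CPM at day 28. The log2 fold change there was 6.43 (SE 0.46), 8.01 (SE 0.50) and 6.63 (SE 0.47), with adjusted p of 4.01e-09, 3.39e-10 and 3.14e-09. The day 14 monocyte libraries were all above those of the other days, but the fall from day 14 to day 28 (log2 -1.37, SE 0.37) missed the threshold (adjusted p = 0.0643).

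Clec4n encodes Dectin-2, a receptor for high-mannose glycans of fungi. It started at 70.5 and 85.2 CPM in control macrophages and at 13.6, 19.1 and 16.5 CPM in control monocytes. In macrophages it stood at 788, 409.5 and 690.3 CPM at day 2, at 2077, 1761 and 1940.3 CPM at day 14, and at 1032, 1269 and 2755 CPM at day 28. All day 14 and day 28 libraries were above all day 2 libraries, and the span at day 28 enclosed that of day 14. The log2 fold change against controls was 3.01 (SE 0.41), 4.63 (SE 0.45) and 4.44 (SE 0.45), with adjusted p of 4.65e-05, 1.14e-06 and 1.59e-06. In monocytes the libraries gave 1237, 752 and 557 CPM at day 2, 4889, 3743 and 4566 CPM at day 14, and 1861, 2007 and 1846 CPM at day 28. That was a rise of 51.8-fold, 268-fold and 116-fold, the day 14 value being the largest change of any of the 7 genes in either cell type (log2 8.07, SE 0.44, adjusted p = 8.91e-11).

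Clec5a encodes MDL-1, the DAP12-coupled member. In macrophages it stood at 66.2 and 45.6 CPM in controls, at 209, 116 and 205 CPM at day 2, at 326, 267 and 338 CPM at day 14, and at 378, 327 and 576 CPM at day 28. Each implant library was above both controls, and the log2 fold change was 1.66 (SE 0.36), 2.48 (SE 0.37) and 2.93 (SE 0.38), with adjusted p of 0.0034, 0.000179 and 3.27e-05. Without macrophage control B the day 2 rise of Clec5a was 1.38 with an adjusted p of 0.0579. In monocytes it stood at 54.6, 68.3 and 38.3 CPM in controls, at 294, 229.9 and 180.0 CPM at day 2, at 1032, 826 and 791 CPM at day 14, and at 358, 678 and 607 CPM at day 28. The log2 fold change there was 2.13 (SE 0.31), 4.04 (SE 0.34) and 3.35 (SE 0.33), with adjusted p of 5.64e-05, 2.79e-08 and 3.56e-07.

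Clec7a encodes Dectin-1, the beta-glucan receptor. Its control levels differed most between the cell types, at 86.2 and 94.3 CPM in macrophages and 552, 748 and 572 CPM in monocytes. Macrophages reached 562, 170.0 and 431 CPM at day 2, 901, 879 and 1077 CPM at day 14, and 1322, 1013 and 1736 CPM at day 28. Day 2 library B was the low one of its group, and all day 14 and day 28 libraries were above all day 2 libraries. The log2 fold change against controls was 2.10 (SE 0.38), 3.40 (SE 0.41) and 3.91 (SE 0.42), with adjusted p of 0.000761, 1.36e-05 and 3.76e-06. In monocytes Clec7a stood at 1348, 1034 and 869 CPM at day 2, at 2787, 3280.1 and 2203 CPM at day 14, and at 1401, 1817 and 1802 CPM at day 28. The day 2 value in monocytes (log2 0.80, SE 0.32) missed the threshold with an adjusted p of 0.0669, although its libraries did not overlap the controls, and DESeq2 and limma voom called it (adjusted p = 0.0392 and 0.0185). At days 14 and 28 the gene rose by 2.14 (SE 0.33) and 1.42 (SE 0.32) on the log2 scale, with adjusted p of 4.9e-05 and 0.0034.

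Clec4a2 encodes DCIR, an inhibitory receptor. In macrophages it lay at 195 and 244 CPM in controls, at 265, 143 and 276 CPM at day 2, at 247, 251 and 423 CPM at day 14, and at 283, 219 and 332 CPM at day 28. The log2 differences of 0.05 (SE 0.32), 0.48 (SE 0.32) and 0.34 (SE 0.32) did not pass the test (adjusted p = 0.935, 0.385 and 0.559), and with library totals in place of TMM they took the opposite sign. In monocytes Clec4a2 stood at 109.7, 164 and 91.3 CPM in controls, at 536, 580.3 and 385 CPM at day 2, at 415, 408 and 449.9 CPM at day 14, and at 311, 261 and 251 CPM at day 28, with all implant libraries above all controls. It rose there by 2.04 (SE 0.29), 1.80 (SE 0.29) and 1.17 (SE 0.29) on the log2 scale, with adjusted p of 4.12e-05, 8.89e-05 and 0.00641.

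Clec12a encodes MICL, an inhibitory receptor for uric acid crystals and dying cells. It was at 286 and 339 CPM in control macrophages, and at 229, 107 and 315 CPM at day 2, 151, 171 and 457 CPM at day 14, and 371, 286 and 170.3 CPM at day 28. In monocytes it was at 389.9, 580.1 and 356 CPM in controls, at 389, 385 and 237 CPM at day 2, at 271, 333 and 218 CPM at day 14, and at 404, 219 and 92 CPM at day 28. The libraries of a group spread widely: macrophage day 14 library C was well above A and B, and monocyte day 28 library C well below A and B. The log2 differences ran from -0.18 (SE 0.53) to -0.89 (SE 0.48), and none of the 6 passed (adjusted p from 0.207 to 0.885). With library totals in place of TMM, the monocyte difference at day 14 was -1.39 and passed (adjusted p = 0.0196), and without the filter on low counts those at days 14 and 28 passed (-0.81 and -0.91).

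**Figure D2:**
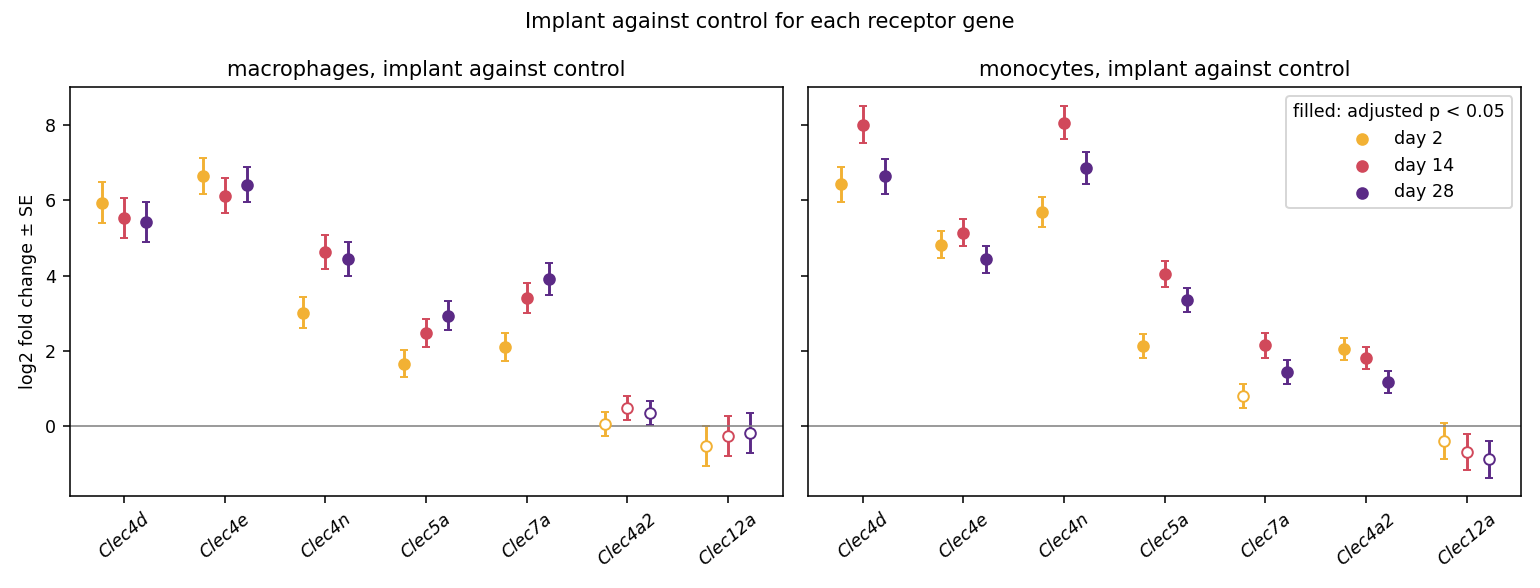
Log2 fold change (± SE) of each receptor gene in implant against control macrophages (left) and monocytes (right) at days 2, 14 and 28, with filled points for an adjusted p under 0.05. Clec4e leads in macrophages at 6.13 to 6.65, Clec4d and Clec4n lead in monocytes, and the points of Clec12a lie below 0 and unfilled throughout.

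Levels were also divided by the summed length of each gene's annotated exons, to set different genes side by side. On this scale the makeup of the set changed along with its sum. The lengths of the transcripts expressed were not measured, so orders and shares per kb depend on the annotation. In mean CPM, Clec4e led in day 2 macrophages (1207, against 764 for Clec4d and 629 for Clec4n). Clec5a was the lowest there in mean CPM (177, against 217 for Clec12a). The 7 genes together gave 245 ± 25.7 CPM per kb (mean ± SD, n = 2) in control macrophages and 1474 ± 504, 2477 ± 282 and 2499 ± 990.0 (n = 3 each) at days 2, 14 and 28. In monocytes they gave 401 ± 81.1 in controls and 2003 ± 565, 6025 ± 577 and 2921 ± 115 at the 3 days (n = 3 each). These are levels per kb, in which each gene counts once.

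Control macrophages were led by Clec4a2 (75.1 CPM per kb), then Clec12a (56.5) and Clec4n (54.8), whose libraries overlapped, then Clec7a (34.2), Clec5a (14.6), Clec4d (7.76) and Clec4e (2.43). Clec4a2 made up 30.5% of the summed level. In control monocytes Clec7a led alone at 237 CPM per kb, or 59.3% of the sum, followed by Clec12a (79.9), Clec4a2 (41.6), and then Clec5a (14.0), Clec4e (13.04) and Clec4n (11.5), of which neighbours overlapped, with Clec4d lowest at 3.87.

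At day 2 the order in macrophages was Clec4d (478 CPM per kb), Clec4n (443), Clec4e (243), Clec7a (147), Clec4a2 (78.0), Clec5a (46.0) and Clec12a (39.3), and each gene's libraries overlapped those of the next. From day 14 Clec4n stood apart at the top in both cell types, at 1356 and 1187 CPM per kb in macrophages and 3098 and 1341 in monocytes at days 14 and 28, with no library overlapping the next gene, Clec7a. Clec4n made up 55.0% and 45.8% of the sum in macrophages and 51.3% and 45.9% in monocytes at those days. Per kb, Clec12a was the lowest of the 7 in all 6 implant groups, at 0.84% to 3.07% of the sum, although its libraries overlapped those of Clec5a at day 2 in both cell types and at day 14 in macrophages.

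**Figure D3:**
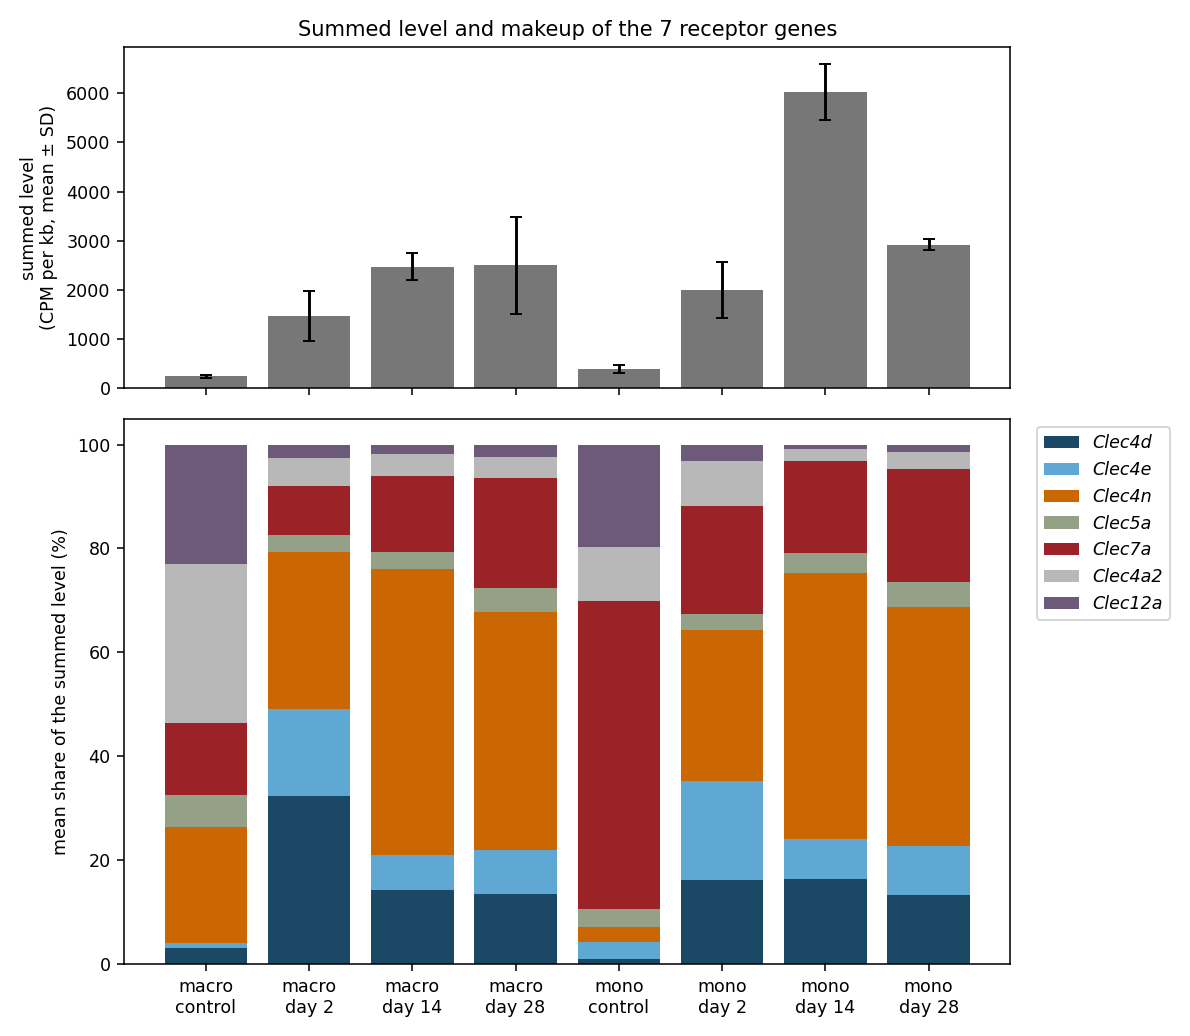
Upper bars give the summed level of the 7 genes (CPM per kb, mean ± SD of 2 macrophage control libraries and 3 libraries in each other group), and lower bars the mean share of each gene in that sum. Clec7a fills 59.3% of the sum in control monocytes, and Clec4n fills 45.8% to 55.0% in both cell types at days 14 and 28.

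Between implant days fewer genes were called. In macrophages from day 2 to day 14, 1 of 7 rose, against 0.197% of all genes, and 0 fell, against 0.277%. The gene was Clec4n, which rose by 1.61 (SE 0.33) on the log2 scale (adjusted p = 0.0265). From day 2 to day 28, 3 of 7 rose, against 2.28%, and 0 fell, against 1.97%: Clec7a rose by 1.81 (SE 0.32, adjusted p = 0.00434), Clec4n by 1.42 (SE 0.33, adjusted p = 0.0213) and Clec5a by 1.27 (SE 0.31, adjusted p = 0.0254). Clec4d (-0.51, SE 0.37) and Clec4e (-0.24, SE 0.31) were not called between these days. Macrophage day 2 library B was the lowest of its group for all 7 genes, and without it the day 28 rises of Clec4n (1.19) and Clec5a (1.05) and the day 14 rise of Clec4n (1.38, adjusted p = 0.171) were not called. The day 28 call of Clec4n was also lost without day 2 library C (1.55) or day 28 library C (0.92), and that of Clec5a without day 2 library A (1.45) or day 28 library A (1.36). The day 14 call of Clec4n was lost without any of day 2 A, B and C and day 14 A and B. None of the 7 was called between days 14 and 28 in macrophages by edgeR, where 0.00615% of all genes were called higher and 0% lower. DESeq2 and limma voom called none either, against 0.172% and 0.486% of all genes. An edgeR unadjusted p under 0.05 was found for 0 of 7, against 8.73% of all genes. These counts are near the shares of all genes.

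In monocytes from day 2 to day 14, 2 of 7 rose, against 0.486% of all genes, and 0 fell, against 0.24%: Clec4n rose by 2.37 (SE 0.34, adjusted p = 0.00473) and Clec5a by 1.91 (SE 0.31, adjusted p = 0.00737). Clec4d (1.58, SE 0.37) and Clec7a (1.35, SE 0.32) lay just past the threshold, with adjusted p of 0.0505 and 0.0524, and DESeq2 and limma voom called all 4, where they called 3.5% and 3.31% of all genes. Without monocyte day 2 library C, neither Clec4n (2.14, adjusted p = 0.0578) nor Clec5a (1.75, adjusted p = 0.0705) was called, and without library B Clec5a was not. From day 14 to day 28 none was called by edgeR, where 0.129% of all genes fell and 0.59% rose, but 6 of 7 had an unadjusted p under 0.05, all with lower means at day 28, as had 19.7% of all genes in either direction. DESeq2 and limma voom each called 2 of 7, where they called 8.97% and 2.05% of all genes. Those 2 were Clec4d (-1.37, SE 0.37) and Clec4n (-1.21, SE 0.33), both with libraries at day 28 all below those at day 14. From day 2 to day 28 none was called by edgeR, where 0.387% of all genes rose and 0.48% fell, while 3 had an unadjusted p under 0.05, as had 15.3% of all genes. DESeq2 called 2 of 7 and limma voom 3, against 5.1% and 3.96% of all genes.

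Over the 4 times at once, 5 of 7 genes changed in macrophages, against 15.9% of all genes, and 6 of 7 in monocytes, against 33.8%. Clec12a was outside both counts (adjusted p = 0.856 and 0.399), and Clec4a2 outside that of macrophages (adjusted p = 0.501).

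Between the cell types, 3 of the 7 genes were called in controls, 2 at day 2, 5 at day 14 and 0 at day 28. In controls, 1 of 7 was higher in macrophages, against 7.61% of all genes: Clec4n, by 2.25 (SE 0.36, adjusted p = 0.000205). Another 2 were lower, against 4.9%: Clec7a by -2.79 (SE 0.39, adjusted p = 4.42e-05) and Clec4e by -2.43 (SE 0.38, adjusted p = 0.00015). Clec4a2 was 0.85 higher in control macrophages (SE 0.31) and missed the threshold (adjusted p = 0.081), although its libraries did not overlap. DESeq2 and limma voom called it (adjusted p = 0.0324 and 0.0202), where they called 16.2% and 21.8% of all genes. Library totals in edgeR also called it (adjusted p = 0.0401). At day 2 none was higher, against 1.64%, and 2 were lower, against 1.78%: Clec7a (-1.48, SE 0.32, adjusted p = 0.0113) and Clec4a2 (-1.13, SE 0.29, adjusted p = 0.0309). Neither was called when only these 2 groups were fitted (adjusted p = 0.0608 and 0.0529), or without monocyte day 2 library A (0.0521 and 0.0853).

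At day 14, 5 of 7 were lower in macrophages, against 4.02% of all genes, and none was higher, against 5.34%. These were Clec7a (-1.53, SE 0.32), Clec5a (-1.51, SE 0.31), Clec4d (-1.48, SE 0.37), Clec4e (-1.45, SE 0.31) and Clec4n (-1.19, SE 0.33), with adjusted p from 0.00579 to 0.0282, and the libraries of the 2 cell types did not overlap for any of them. Leaving out macrophage library A or B, or monocyte library A or C, took away the calls of Clec4d and Clec4n and left 3 of 7, and leaving out macrophage library C took away that of Clec4n. The 7 fibroblast markers summed to between 612 and 1117 CPM in day 14 monocytes and to between 23.8 and 76.5 CPM in day 14 macrophages, and their part in these differences was not tested. At day 28 none of the 7 was called by edgeR, against 1.49% of all genes called higher and 1.03% lower. DESeq2 and limma voom called none either, against 7.26% and 7.18% of all genes. An edgeR unadjusted p under 0.05 was found for 0 of 7, against 18.2% of all genes. For 7 genes, these counts are near the shares of all genes. The differences there ran from -0.45 (SE 0.31, Clec4e) to 0.21 (SE 0.48, Clec12a), and the libraries of both cell types overlapped for all 7.

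The implant effect itself, as the change in macrophages minus that in monocytes, was tested gene by gene. At day 2, 1 of 7 was called higher, against 1.37% of all genes, and 2 lower, against 2.42%; at day 14, none was called higher, against 3.25%, and 3 lower, against 4.29%; at day 28, 2 were called higher, against 2.23%, and 1 lower, against 3.55%. Clec4n rose less in macrophages than in monocytes at all 3 days, and its control level was the higher one in macrophages. Clec4e rose more in macrophages at days 2 (1.83, SE 0.48) and 28 (1.98, SE 0.48), where its control level was lower than in monocytes, but neither difference was called without macrophage control B (1.29 and 1.46). Clec7a rose more in macrophages at day 28 (2.49, SE 0.49). Clec4a2 rose less there at day 2 (-1.99, SE 0.42), and Clec4d (-2.49, SE 0.55) and Clec5a (-1.56, SE 0.45) at day 14; the call of Clec4d was lost without macrophage control B (-1.87), and that of Clec5a without any 1 of its libraries except monocyte control B. The control libraries enter all 3 of these tests.

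Neutrophils also express Clec4d, Clec4e, Clec5a and Clec7a, and neutrophil markers moved at day 2. The 12 neutrophil markers summed to 195 and 214 CPM in control macrophages, to 7135, 3446 and 4860 CPM at day 2, to 262, 177 and 369 CPM at day 14, and to 210 to 361 CPM at day 28 (209.6, 219 and 361). Within day 2 macrophages the library order of this sum, A above C above B, was also that of Clec4d, Clec4e, Clec4n, Clec5a and Clec7a. Within day 2 monocytes the sum also ran A above C above B (5475, 3598 and 2388 CPM), but these 5 genes ran A above B above C. At days 14 and 28 Ly6g, the defining marker, was at 0 to 0.418 CPM in macrophages, 12 and 11 of the 12 markers had any count, and Clec4d and Clec4e in those libraries were between 401 and 1311 CPM. In monocytes the sum was 2746 to 4253 CPM in controls and 2388 to 5475 CPM at day 2, with Clec4d 4.93 to 8.47 CPM in the former and 339.6 to 753 CPM in the latter. It was 319 to 887 CPM at day 14, where Clec4d and Clec4n were highest. The part of neutrophil RNA in the day 2 levels was not tested. The 9 lymphocyte markers summed to 93.4 CPM in macrophage day 2 library C and 113 CPM in monocyte day 2 library B, against 2.02 to 24.1 CPM in the other libraries. The 8 dendritic cell markers summed to 1114 and 553 CPM in macrophage day 28 libraries A and B and to 511 CPM in monocyte control A. None of these libraries was the highest of its group for any of the 5 activating receptors. Clec4a2 was highest of its group in macrophage day 2 C (276 CPM) and monocyte day 2 B (580.3 CPM). Clec12a was highest of its group in macrophage day 2 C (315 CPM) and day 28 A (371 CPM). The part of lymphocyte and dendritic cell RNA in these levels was not tested.

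**Figure D4:**
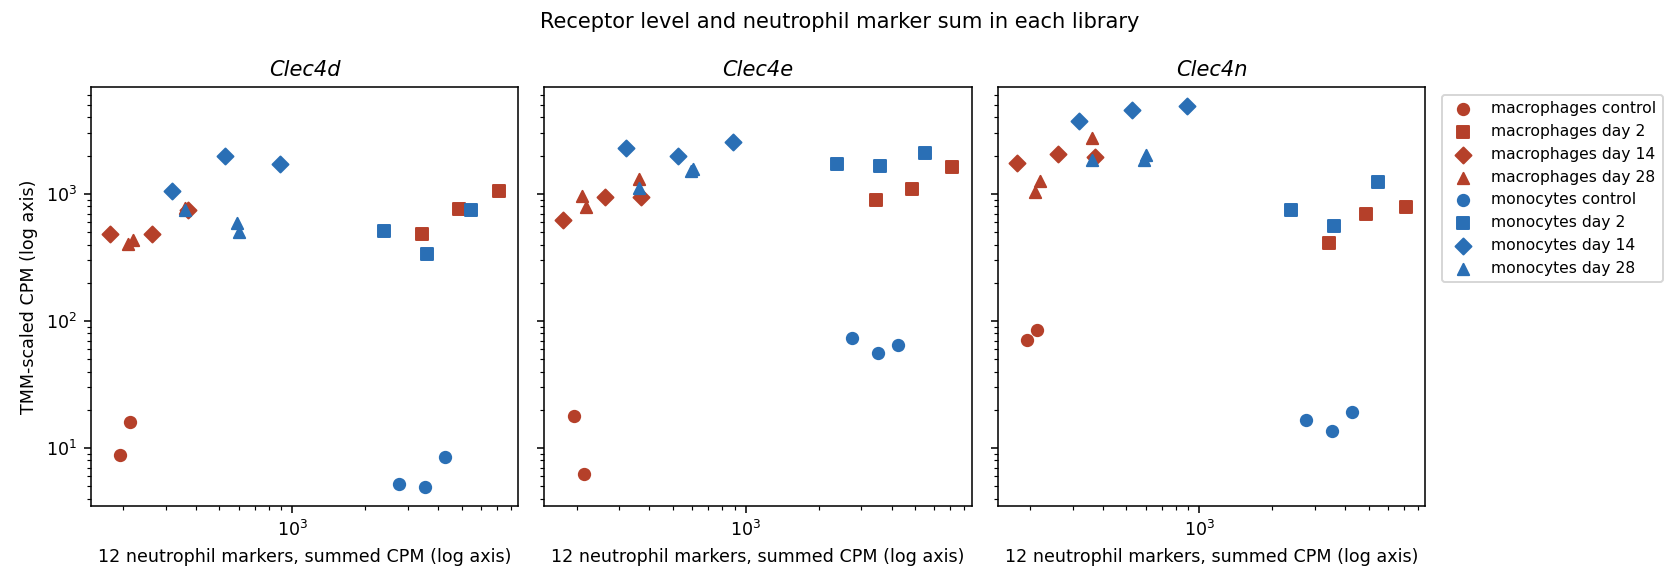
Level of Clec4d, Clec4e and Clec4n (TMM-scaled CPM, log axis) against the summed CPM of 12 neutrophil markers (log axis) in each of the 23 libraries, coloured by cell type and shaped by time. Day 14 and 28 macrophages lie at 177 to 369 CPM of marker, near their controls at 195 and 214, with receptor levels far above them, and control monocytes lie at 2746 to 4253 CPM with low receptor levels. The sum was made up differently in control and day 2 monocytes. Ngp was 780 to 1394 CPM in the former and 3.30 to 12.4 CPM in the latter, and Retnlg 0.531 to 1.11 and 85.9 to 317 CPM.

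The partner chains were called higher at some days only. Fcer1g, the FcR gamma chain, went from a mean of 1481 CPM in control macrophages to 4374 CPM at day 2 (log2 1.56, SE 0.44, adjusted p = 0.0183; 0.96 and uncalled with library totals) and from 1726 CPM in control monocytes to 4496 CPM at day 2 (1.38, SE 0.38, adjusted p = 0.0105) and 8804 CPM at day 14 (2.35, SE 0.39, adjusted p = 0.000111). It was not called in macrophages at days 14 (1.17, SE 0.43) and 28 (0.44, SE 0.42) or in monocytes at day 28 (1.04, SE 0.37). Tyrobp (DAP12) rose in monocytes at day 14 (1.55, SE 0.42, adjusted p = 0.00712; 0.78 and uncalled with library totals) and was not called in the other 5 comparisons, where its log2 differences ran from 0.52 to 1.37. Syk, the shared kinase, fell in monocytes from a mean of 312 CPM, with log2 changes of -1.61 (SE 0.30), -1.75 (SE 0.30) and -1.15 (SE 0.30) at the 3 days (adjusted p = 0.000628, 0.000178 and 0.00997), and in macrophages at day 2 (-1.01, SE 0.33, adjusted p = 0.0373). Counts in the pathway lists are set against the shares of all genes that rose (10.1%, 5.51% and 6.57% in macrophages at days 2, 14 and 28, and 15.5%, 19.8% and 11.7% in monocytes) and that fell (7.1%, 2.7% and 3.99%, and 11.5%, 17.9% and 6.52%). With library totals, 843, 517 and 584 of all 16260 genes rose and 2857, 1433 and 1346 fell in macrophages. In monocytes 1638, 1861 and 1359 rose and 3215, 5361 and 2050 fell. List counts with library totals, here and below, are set against these. Of the 14 adaptors and kinases listed, 2, 1 and 1 rose and 2, 1 and 1 fell in macrophages at the 3 days, which is near those shares, and 1, 4 and 1 rose and 4, 5 and 3 fell in monocytes, where with library totals 1, 2 and 1 rose and 7, 8 and 6 fell. The list's median log2 change was 0.15, 0.53 and 0.40 in macrophages and -0.33, -0.38 and -0.33 in monocytes, and with library totals it was below 0 in all 6 comparisons. Fgr, a Src family kinase, rose in macrophages at all 3 days, by 2.57 (SE 0.39) at day 28, and Prkcd, the kinase that activates Card9, fell in monocytes at all 3 days (log2 -2.52, SE 0.33, at day 14).

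Card9 was a low-level transcript, at a mean of 9.63 CPM in control macrophages and 15.2 CPM in control monocytes, and it was lower at day 28 in both, with log2 changes of -1.64 (SE 0.43, adjusted p = 0.0173) and -1.42 (SE 0.40, adjusted p = 0.0158). Among the 14 genes of the Card9 and NF-kB list, 1, 2 and 1 rose and 0, 0 and 1 fell in macrophages, and 1, 1 and 0 rose and 7, 7 and 4 fell in monocytes. Of all genes, 10.1%, 5.51% and 6.57% rose in macrophages and 7.1%, 2.7% and 3.99% fell. In monocytes 15.5%, 19.8% and 11.7% of all genes rose and 11.5%, 17.9% and 6.52% fell. With library totals 0, 1 and 1 rose and 4, 3 and 1 fell in macrophages, and 1, 0 and 0 rose and 9, 11 and 5 fell in monocytes. With that scaling 2857, 1433 and 1346 of all 16260 genes fell in macrophages and 3215, 5361 and 2050 in monocytes. The list's median was -0.09, 0.19 and 0.10 in macrophages, which became -0.70, -0.33 and -0.38 with library totals, and -0.94, -1.07 and -0.28 in monocytes, which stayed below 0. Bcl10 rose at days 2 and 14 in both cell types, by 0.88 (SE 0.23) to 1.07 (SE 0.24), but with library totals only the day 2 monocyte rise was called. Malt1 rose in macrophages at days 14 and 28 (2.18, SE 0.46, and 2.63, SE 0.47) and fell in monocytes at day 2 (-1.69, SE 0.39). Nfkb1 and Ikbkb fell in monocytes at all 3 days, with a log2 change of -1.46 (SE 0.24) for Nfkb1 at day 28.

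Of the brakes on this pathway, 11 of the 12 listed were tested. In macrophages 3, 3 and 2 rose and 1, 0 and 0 fell (3, 3 and 2 and 2, 0 and 0 with library totals), and in monocytes 2, 3 and 4 rose and 3, 4 and 2 fell (2, 2 and 2 and 5, 7 and 4 with library totals). With TMM, 10.1%, 5.51% and 6.57% of all genes rose in macrophages and 7.1%, 2.7% and 3.99% fell. In monocytes 15.5%, 19.8% and 11.7% of all genes rose and 11.5%, 17.9% and 6.52% fell. Ptpn6 (SHP-1), the phosphatase of inhibitory receptors, was not called in macrophages (log2 -0.09 to 0.17, SE 0.23) and fell in monocytes at day 14 (-0.58, SE 0.20, adjusted p = 0.0312) and day 28 (-0.61, SE 0.20, adjusted p = 0.043). Pilra, an inhibitory receptor gene, rose in all 6 comparisons, from 1.33 (SE 0.29) to 2.52 (SE 0.36), and Tnfaip3, which encodes the NF-kB inhibitor A20, rose in macrophages at all 3 days, by up to 3.25 (SE 0.50). Sirpa, which encodes the CD47 receptor, fell in monocytes at days 2 and 14 (-1.47 and -1.44, SE 0.23 each).

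Cytokine and immediate response genes that these receptors can induce, and that many other receptors induce too, rose widely. Of the 16 tested, 9, 5 and 6 rose in macrophages and 13, 12 and 11 in monocytes at days 2, 14 and 28, with 1, 0 and 0 and 1, 2 and 0 lower. Of all genes, 10.1%, 5.51% and 6.57% rose in macrophages and 7.1%, 2.7% and 3.99% fell. In monocytes 15.5%, 19.8% and 11.7% of all genes rose and 11.5%, 17.9% and 6.52% fell. With library totals 9, 5 and 6 and 12, 10 and 11 rose. The list's median log2 change was 3.60, 1.21 and 1.09 in macrophages and 5.98, 5.94 and 5.28 in monocytes. Il1b went from 27.3 CPM in control macrophages to 3029 CPM at day 2 (6.79, SE 0.67), and from 106.9 CPM in control monocytes to 7446 CPM at day 14 (6.12, SE 0.54). Cxcl2, a neutrophil chemokine, went from 9.68 CPM in control monocytes to 2178 CPM at day 14 (7.81, SE 0.48), and Ptgs2, the prostaglandin synthase COX-2, from 2.02 CPM in control macrophages to 203 CPM at day 2 (6.62, SE 0.80). Il6 rose in macrophages at day 2 (24.7 against 0.951 CPM) and was not called there at days 14 (1.19 CPM) and 28 (1.78 CPM). Cxcl1 was at a mean of 0.0805 CPM in control monocytes, below the value of 3 counts in any library (0.0909 to 0.322 CPM before TMM scaling), and at 70.0, 102 and 38.0 CPM at the 3 days.

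Among regulators of myeloid genes, 5, 4 and 3 of 12 rose in macrophages and 4, 4 and 5 in monocytes, with 1, 1 and 1 and 4, 6 and 1 lower. Of all genes, 10.1%, 5.51% and 6.57% rose in macrophages and 7.1%, 2.7% and 3.99% fell. In monocytes 15.5%, 19.8% and 11.7% of all genes rose and 11.5%, 17.9% and 6.52% fell. The list's median was 0.94, 1.29 and 1.08 in macrophages and -0.68, -0.63 and -0.08 in monocytes. With library totals 5, 3 and 2 rose in macrophages and 3, 3 and 3 in monocytes, with the medians of the same sign. Cebpb, whose product C/EBP beta drives inflammatory myeloid genes, rose in all 6 comparisons, from 6.91 to 59.8 CPM in macrophages at day 2 (3.12, SE 0.59) and from 16.5 to 107 CPM in monocytes at day 14 (2.70, SE 0.48). Hif1a, of the hypoxia response, rose in all 6, by up to 3.20 (SE 0.48) in monocytes at day 28, and so did Fos, by up to 2.43 (SE 0.29) in macrophages at day 28. Klf4 rose in all but macrophages at day 28. With library totals the calls of Cebpb in macrophages at day 28, of Hif1a in monocytes at day 14, of Fos in monocytes at day 2, and of Klf4 in macrophages at day 14 and monocytes at day 28 were lost, with the same sign. Irf4 fell in all 6, from a mean of 37.0 to 1.68 CPM in monocytes at day 28 (log2 -4.46, SE 0.53). Spi1, which encodes PU.1, was not called in macrophages (log2 -0.85 to 0.67, SE 0.75 to 0.78). In monocytes it fell at day 14 (-2.42, SE 0.72, adjusted p = 0.0125), when Clec4d, Clec4e, Clec4n, Clec5a and Clec7a had their highest group means. The day 14 and day 2 monocyte libraries of Clec4e overlapped. A link between Spi1 and the receptor levels was not tested.

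Of the other lectin genes in the same 2 clusters or close to them in sequence, 11 of 12 were tested. In macrophages 1 of 11 rose at each day, against 10.1%, 5.51% and 6.57% of all genes, and in monocytes 1, 2 and 1 rose, against 15.5%, 19.8% and 11.7%. These counts are near the shares of all genes. In all 6 this included Olr1, which encodes the oxidised LDL receptor LOX-1 and is a neighbour of Clec7a, with rises of 2.67 (SE 0.32) to 6.15 (SE 0.46). Clec4a1 and Clec4a3, close relatives of Clec4a2, were called in none of the 6 (log2 -0.23 to 0.78 and -0.02 to 0.68). Clec4b1 fell in macrophages at day 2 (-2.98, SE 0.60). The median of the 11 was -0.04, 0 and 0 in macrophages and -1.13, 0.34 and -0.54 in monocytes. With library totals it was -0.65, -0.39 and -0.25 and -1.61, -0.43 and -0.96, which turns the sign at day 14 in monocytes, and 1 gene in place of 2 rose there.

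Lectins of resident macrophages, a group that includes mannose receptor and CD209 genes, fell in macrophages, where 7 of 9 tested were lower at each day, against 7.1%, 2.7% and 3.99% of all genes. Clec10a fell from 1031 CPM in controls to 103, 210.1 and 82.3 CPM, Mgl2 from 944 to 36.4, 172 and 109.9 CPM, and Cd209g from 443 to 1.66, 5.18 and 2.08 CPM. Mrc1 (CD206) fell from 1307 to 247, 446 and 406 CPM in macrophages, and rose in monocytes from 11.6 to 179, 87.9 and 132 CPM (log2 3.94, SE 0.49, at day 2). In monocytes 1 of the 9, Mrc1, rose at each day, against 15.5%, 19.8% and 11.7% of all genes, and that count is near those shares. Another 2 fell at each day, against 11.5%, 17.9% and 6.52%. With library totals 2, 4 and 3 fell, where 3215, 5361 and 2050 of all 16260 genes did.

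Across all 23 libraries, the levels of the 5 activating receptors were positively correlated. Pearson's r of log2(CPM + 1) ran from 0.839 (Clec4e with Clec4n) to 0.955 (Clec4d with Clec4n) over the 6 pairs of Clec4d, Clec4e, Clec4n and Clec5a, and from 0.615 (with Clec4d) to 0.819 (with Clec5a) for Clec7a with those 4. Clec12a had r between -0.386 and 0.077 with the other 6. These values describe libraries that share their groups, so the step from control to implant enters each r. Over 6988 genes of mean level 10 CPM or more, those most like Clec4d were Tpi1 (r = 0.992), a glycolytic enzyme, Hilpda (0.992), a lipid droplet protein of the hypoxia response, and Timp1 (0.98). Those most like Clec4e were Tarm1 (0.973), Trem1 (0.968) and F10 (0.968), of which Tarm1 and Trem1 encode activating receptors of myeloid cells. Clec4n was closest to Got1 (0.978), Atp6v0c (0.96) and Hilpda (0.953), and Clec5a to M6pr (0.968), Pla1a (0.96) and Il1rn (0.95). Clec7a was closest to Syngr2 (0.934), Ucp2 (0.931) and Havcr2 (0.926), the last encoding the receptor TIM-3. Clec4a2 was closest to Ufc1 (0.904), Lpxn (0.874) and Pmvk (0.865), and Clec12a, with the loosest matches, to Ear2 (0.852), Aph1b (0.782) and Prkcb (0.722).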

How the data were processed

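RNA was measured in 23 libraries sorted by cell type, amplified by SMART-Seq v4, tagmented with Nextera XT and read as single 75-base reads, per the labels' protocols. The submitters' processing notes name bcl2fastq, STAR 2.4.1d, featureCounts (Subread 1.5.1) and the build GRCm38. The authors deposited raw counts, whole numbers for 47729 entries. The sources used here do not give the annotation release or strand setting. Symbols and exon lengths came from GENCODE M21 (419 entries without a symbol held 0.095% of counts), and promoters from RefSeq.

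Counts were fitted in R 4.3.3 with edgeR 4.0.16 (filterByExpr, TMM, robust quasi-likelihood F tests, 8 groups, all 23 libraries), adjusted by Benjamini-Hochberg over 16260 genes, and the methods were tested on simulated data. Each SE was derived from the fold change and its F statistic. Per-kb levels divide CPM by the summed annotated exon length. The 7 genes and the lists were chosen with earlier results of these data known. Named were all 7, the 3 genes most correlated with each, and up to 4 per list by smallest adjusted p plus Fcer1g, Tyrobp, Syk, Card9 and Ptpn6; Il6, Spi1, Clec4a1 and Clec4a3 were chosen after their values were seen, as were Cebpb and the marker genes Ly6c2 and C1qa. Lilrb4a of the brakes list had no matching symbol. Alternatives were RLE factors, no filter, DESeq2 1.42.0, limma 3.58.1 voom with quality weights, a replicate block, only the groups compared and leaving out each library. Library totals without TMM were added after seeing the data.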

Additional observations from a re-analysis of the deposited data

Results flagged for a closer look

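The implant effect was compared between the cell types by edgeR's test of the difference itself (change in macrophages minus change in monocytes, log2, adjusted over 16260 genes). At day 2, 1 of the 7 genes was called higher and 2 lower, against 1.37% and 2.42% of all genes. At day 14, 0 were called higher and 3 lower, against 3.25% and 4.29%. At day 28, 2 were called higher and 1 lower, against 2.23% and 3.55%. Clec4n rose less in macrophages at each day, by -2.68 (SE 0.49, adjusted p = 0.00205) at day 2, -3.44 (SE 0.49, adjusted p = 0.000161) at day 14 and -2.42 (SE 0.49, adjusted p = 0.00368) at day 28. Its change was 3.01, 4.63 and 4.44 in macrophages and 5.69, 8.07 and 6.86 in monocytes. These 3 calls held in every alternative fit and with every library left out in turn.

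Clec4e rose more in macrophages at day 2, by 1.83 (SE 0.48, adjusted p = 0.0311), and at day 28, by 1.98 (SE 0.48, adjusted p = 0.0144). Without macrophage control B, in which Clec4e was at 6.29 CPM against 17.8 CPM in control A, these were 1.29 (adjusted p = 0.17) and 1.46 (adjusted p = 0.1). The day 2 call was also lost with library totals (1.64) and without macrophage day 2 A, monocyte control C, or monocyte day 2 B or C, and the day 28 call when only the groups compared were fitted (adjusted p = 0.0671). Clec7a rose more in macrophages at day 28, by 2.49 (SE 0.49, adjusted p = 0.00294), from control levels that were lower there than in monocytes.

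Clec4d rose less in macrophages at day 14, by -2.49 (SE 0.55, adjusted p = 0.00823), and without macrophage control B the value was -1.87 (adjusted p = 0.0719). Clec5a rose less there at day 14, by -1.56 (SE 0.45, adjusted p = 0.0388), a call that was lost with library totals (-1.39, adjusted p = 0.0527) and without any 1 of its libraries except monocyte control B (adjusted p from 0.0519 to 0.209). Clec4a2 rose less in macrophages at day 2, by -1.99 (SE 0.42, adjusted p = 0.0077), where its change was 0.05 in macrophages and 2.04 in monocytes. Its control mean was 220 CPM in macrophages and 122 CPM in monocytes, a difference edgeR did not call (adjusted p = 0.081).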

How the results depend on the processing

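The counts of members called against controls were within 1 of the reported ones under every alternative fit and with each library left out, and no called value changed sign. Uncalled values against controls did: with library totals in place of TMM, Clec4a2 in macrophages was -0.55, -0.092 and -0.13 at days 2, 14 and 28, and without the filter it was -0.018 at day 2. Leaving out single libraries, it ran from -0.20 to 0.30 at day 2, and Clec12a in macrophages from -0.97 to 0.007 at day 14 and from -0.46 to 0.040 at day 28. Counts between days moved most. Macrophages at day 14 against day 2 gave 2 of 7 with library totals, no filter, DESeq2 or voom, and 0 to 1 without single libraries (0 without day 2 B or C, or day 14 A or B). Over all genes, these 4 fits called 99 of 16260, 682 of 27163, and 336 and 721 of 16260. The main fit called 77 of 16260, and 29 to 108 were called without single libraries. Macrophages at day 28 against day 2 gave 1 to 3 (1 without day 2 B), where the main fit called 692 of all 16260 genes and that without day 2 B 215 of 16163. Monocytes at day 14 against day 2 gave 4 with RLE, no filter, DESeq2 or voom, and 0 to 3 without single libraries. These 4 fits called 124, 741, 569 and 538 of all genes, against 118 in the main fit and 0 to 159 without single libraries. Monocytes at day 28 against day 14 gave 2 with no filter, DESeq2 or voom, which called 1523, 1458 and 334 of all genes, against 117 in the main fit. Monocytes at day 28 against day 2 gave 1 with library totals, 2 with no filter or DESeq2 and 3 with voom, and 0 to 1 without single libraries (1 without day 28 A). Of all genes, library totals called 113, no filter 1089, DESeq2 830 and voom 644, against 141 in the main fit. Macrophages against monocytes gave 0 at day 2 with only those groups, and 0 to 2 there and 3 to 5 at day 14 without single libraries. At day 2, 808 of all 12142 genes were called with only those groups, 269 to 384 without single libraries and 556 in the main fit. At day 14, 635 to 1432 genes were called without single libraries and 1523 in the main fit. The day 14 difference in implant effect gave 1 to 4 (1 without macrophage control B, 4 with RLE, no filter, DESeq2, voom or only the groups compared). The gene gained was Clec4a2 with RLE, DESeq2 and voom, and Clec7a with no filter and with only the groups compared. There 761 of all 17601 genes were called without macrophage control B, 2213 of 16260 with DESeq2, 2685 with voom and 1227 in the main fit. RLE called 1299 of 16260, no filter 2366 of 27163, and the fit of only the groups compared 1378 of 15231. Of single calls, library totals also took away the day 14 difference of Clec4n between the cell types (-0.97, adjusted p = 0.0532). The cause of these shifts was not tested. Replicate letters are not described: over 77 same-letter pairs of libraries, deviations from group means had a median correlation of -0.012 (-0.228 to 0.237), against 0.009 for 154 pairs of different letters. A fit with the letter as a replicate block took away the day 14 difference in implant effect of Clec5a (-1.55, adjusted p = 0.0611). It called 2 and not 3 of 7 there, and 942 and not 1227 of all 16260 genes. The counts of the 7 genes in the other comparisons stayed as they were. Over all genes, counts depended more on the tool: at day 14 in macrophages edgeR called 1335 genes against controls, DESeq2 2206 and voom 2455, and from day 14 to 28 in monocytes 117, 1458 and 334.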
